A study of Mus musculus with 6 samples.

Results

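Aldehyde dehydrogenases oxidise aldehydes to acids, and the 10 genes of this family described here, *Aldh1a1*, *Aldh1a2*, *Aldh1a3*, *Aldh1b1*, *Aldh1l1*, *Aldh2*, *Aldh3a1*, *Aldh3a2*, *Aldh9a1* and *Aldh18a1*, were found by symbol among 36172 genes, and all 10 were in the table. They were examined because *Aldh1a3* was higher in both p53 mutant genotypes, so its values against *Trp53* +/+ are given as a description without a test. The other 9 were taken as members of the family, and how they were picked from it is not stated; 11 further *Aldh* genes served as a comparison. Tumor-derived organoids, cultures of epithelial cells grown from small intestinal tumors of C57BL/6 mice aged 15 to 20 weeks, were compared between 3 genotypes with 2 libraries each. All carried the *Apc* Δ716 truncation with loss of the other *Apc* copy, and there were no organoids of normal mucosa. The *Trp53* +/+ organoids had wild-type p53, and the *Trp53* flox/flox organoids carried the unrecombined conditional R270H allele on both chromosomes, which is functionally null. The *Trp53* R270H/R270H organoids expressed the missense protein after tamoxifen activated Cre driven by the villin promoter in the intestinal epithelium. Each library was poly(A) RNA of an organoid preparation, and the values are RPKM, read numbers scaled to gene length and to all mapped reads of the library. No deposited value was below 1 RPKM, so 1 is a floor and everything under it is unknown.

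In the retinoid pathway, retinol is taken up and bound by carrier proteins, oxidised reversibly to retinaldehyde by retinol dehydrogenases, and then oxidised irreversibly to retinoic acid by ALDH1A1, ALDH1A2 and ALDH1A3. Retinoic acid binds nuclear RAR and RXR receptors, which switch on target genes that include its own degrading CYP26 enzymes, and in the intestine it is known for guiding epithelial and immune differentiation. The remaining members are known mainly for other reactions. ALDH2 and ALDH1B1 are mitochondrial enzymes that clear acetaldehyde, ALDH3A1 and ALDH3A2 oxidise aldehydes from lipids, ALDH9A1 acts in carnitine synthesis, ALDH18A1 starts proline synthesis from glutamate, and ALDH1L1 oxidises 10-formyltetrahydrofolate.

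The retinaldehyde-oxidising genes are close relatives, which bears on how reads are assigned to them. Their coding stretches around the catalytic cysteine codon are shown here, 63 bases each from the longest open reading frame of the GENCODE M21 transcripts, with capitals marking bases that differ from *Aldh1a3*.
Aldh1a3: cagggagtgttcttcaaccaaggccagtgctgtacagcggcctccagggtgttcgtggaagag
Aldh1a1: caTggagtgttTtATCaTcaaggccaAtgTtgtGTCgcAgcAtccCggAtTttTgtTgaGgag
Aldh1a7: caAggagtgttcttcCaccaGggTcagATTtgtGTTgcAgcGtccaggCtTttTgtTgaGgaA
Aldh1a2: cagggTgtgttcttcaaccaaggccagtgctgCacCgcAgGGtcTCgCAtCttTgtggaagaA
The differing bases numbered 19 in *Aldh1a1*, 18 in *Aldh1a7* and 13 in *Aldh1a2*. Over the whole coding sequence *Aldh1a3* was 67.4% identical to *Aldh1a1* and 68.9% to *Aldh1a2*, with longest shared runs of 17 and 26 bases. In contrast *Aldh1a1* and its neighbour *Aldh1a7* were 91.6% identical over 1506 bases and shared a run of 100 bases, so reads may be split between them and their single values are uncertain.

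*Aldh1a1* and *Aldh1a7* also resemble each other upstream. Their RefSeq promoters (250 bases before to 50 after the start, build GRCm38.p6) are printed to show where this likeness lies, the first being the second listed start of *Aldh1a1* at chr19:20601718-20602017 (plus strand) and the other that of *Aldh1a7* at chr19:20727507-20727806 (minus strand). Capitals mark bases that differ or are unaligned between them.
Aldh1a1: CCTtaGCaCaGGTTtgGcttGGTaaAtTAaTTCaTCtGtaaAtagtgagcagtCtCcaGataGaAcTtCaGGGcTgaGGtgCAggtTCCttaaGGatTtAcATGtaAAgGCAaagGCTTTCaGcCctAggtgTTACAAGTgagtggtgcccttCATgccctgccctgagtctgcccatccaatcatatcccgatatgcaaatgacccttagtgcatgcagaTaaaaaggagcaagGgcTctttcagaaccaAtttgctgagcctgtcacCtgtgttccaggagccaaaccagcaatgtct
Aldh1a7: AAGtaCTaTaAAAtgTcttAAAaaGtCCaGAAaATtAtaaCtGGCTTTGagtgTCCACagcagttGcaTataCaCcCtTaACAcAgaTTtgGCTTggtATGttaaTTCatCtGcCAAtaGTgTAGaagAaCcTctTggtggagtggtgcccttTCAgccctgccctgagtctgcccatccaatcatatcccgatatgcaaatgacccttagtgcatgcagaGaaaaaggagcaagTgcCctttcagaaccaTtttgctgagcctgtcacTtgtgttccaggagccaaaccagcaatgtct
The pair was identical at 221 of 285 aligned bases (77.5%), with a longest shared run of 65 bases in the part nearer the start. RefSeq promoters were matched for 7 of the 10 members. The retinoic acid receptor half-site AGGTCA, searched on both strands, was in the promoter of *Aldh1l1* and of no other matched member, and 16.3% of 32851 promoters of this length hold it. It is shown in capitals, on the reverse strand, together with GGGCGG, the letters of an SP1 site, which 35.7% of promoters hold.
Aldh1l1, chr6:90550543-90550842 (plus strand): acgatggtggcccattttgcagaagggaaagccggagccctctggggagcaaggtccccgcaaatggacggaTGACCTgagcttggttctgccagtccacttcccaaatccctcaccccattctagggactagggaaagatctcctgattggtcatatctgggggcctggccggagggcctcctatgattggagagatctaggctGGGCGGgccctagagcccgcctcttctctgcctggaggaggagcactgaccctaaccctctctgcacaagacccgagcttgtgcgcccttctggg
A p53 half-site, searched likewise, was found in none of the 7 matched promoters, against 8.4% of all promoters. These are letter matches in a short window and say nothing on binding.

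Depth, estimated from the steps of 1 read between values of short genes, was 44.2 to 47.3 M reads in 5 libraries. The estimate of 48.5 M reads for *Trp53* flox/flox replicate 1 rested on 8 values and was not used. *Trp53* itself was at 75.9 and 74.3 RPKM in +/+, at 1.73 and 2.48 in flox/flox and at 72.8 and 82.7 in R270H/R270H, in keeping with the labels. The flox/flox libraries stood apart from each other. The median SD between the libraries of a genotype was 0.247 on the log2 scale in flox/flox against 0.046 in +/+ and 0.062 in R270H/R270H. The sum of 8 stomach markers was 65.5 and 68.4 RPKM in +/+, 10.6 and 42.7 in flox/flox and 24.3 and 27.8 in R270H/R270H. *Lipf* carried most of it in +/+, at 47.9 and 51.9 RPKM, while *Gkn1*, *Cldn18* and *Tff1* were at 10.6, 7.27 and 5.83 in flox/flox replicate 2 and at the floor in replicate 1, and *Muc6* was highest in R270H/R270H, at 16.6 and 19.9. All 8 epithelial markers were expressed, with sums of 2230 to 4270 RPKM. Of 8 immune markers 7 were at the floor in all 6 libraries, and so were 4 of 5 endothelial markers, the exception being *Cdh5* with 8.88 and 9.35 RPKM in +/+ and 1.00 to 3.30 in the mutant libraries. Of the fibroblast markers *Col1a2*, *Col3a1* and *Lum* were at the floor throughout, whereas *Acta2* at 11.5, *Col1a1* at 2.44, *Pdgfrb* at 1.36, *Pdgfra* at 1.23 and *Dcn* at 1.05 RPKM were above it in flox/flox replicate 2. The fibroblast sum of 9 genes was 40.4 to 79.6 RPKM in +/+ and flox/flox and 315 and 293 in R270H/R270H, where *Vim* alone gave 306 and 284.

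Among the 3 retinaldehyde-oxidising genes, *Aldh1a3* (chromosome 7, 66390892 to 66427477, GRCm38) changed from the lowest member in +/+ to 33.4% and 34.4% of the summed level of the 3 in R270H/R270H. It was listed at the floor of 1 RPKM in both +/+ libraries, at 3.14 and 1.92 RPKM in flox/flox, and at 13.0 and 10.6 RPKM in R270H/R270H. The 3 genotypes did not overlap, and R270H/R270H was at least 11.8-fold and flox/flox at least 2.53-fold above +/+, both as lower bounds because of the floor. A value of 1 RPKM stands for 152 to 163 reads of this gene in the 5 libraries whose depth was used, so the +/+ level was hidden by the floor and not by depth.

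*Aldh1a3* was chosen for its rise over +/+ in both mutant genotypes, so the choice used the values compared here. Their difference was not itself the ground, but its p is not independent of the choice and serves as a description. *Aldh1a3* was 4.67-fold higher in R270H/R270H than in flox/flox, a log2 fold change of 1.88 ± 0.21 (SE) on the log2(RPKM + 1) scale (limma, n = 2 libraries each, adjusted p = 0.00769). It passed the filter of 4 RPKM in at least 1 library through R270H/R270H alone, the group in which it is high, so this p is not independent of how it entered the test. With a filter of 1 RPKM, which it passes through flox/flox as well but not through +/+, the adjusted p of limma was 0.00752. The log2 fold change was 1.74 without R270H/R270H replicate 1 and 2.01 without replicate 2. The call was not kept in either fit, where R270H/R270H had 1 library and most calls over all genes were lost as well. Over 18 alternatives the log2 fold change ranged from 1.62 to 2.26, and the call was kept in 15. These alternatives use the same libraries and the same choice of gene, so they are no independent support.

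*Aldh1a1*, the most abundant of the 3, was lowest in R270H/R270H. It was at 37.1 and 51.8 RPKM in +/+, 55.3 and 31.7 in flox/flox, and 25.0 and 19.2 in R270H/R270H. Both R270H/R270H libraries were below all 4 others, while +/+ and flox/flox overlapped. The log2 fold change of R270H/R270H was -0.97 ± 0.32 against +/+ (limma, adjusted p = 0.109) and -0.90 ± 0.32 against flox/flox (adjusted p = 0.0921), and neither passed the threshold of 0.05. *Aldh1a2* was low throughout, at 2.93 and 3.50 RPKM in +/+, 1.00 and 1.06 in flox/flox and 1 and 1 in R270H/R270H, and did not pass the filter, so it was not tested. All 4 mutant libraries were below both +/+ libraries.

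**Figure D1:**
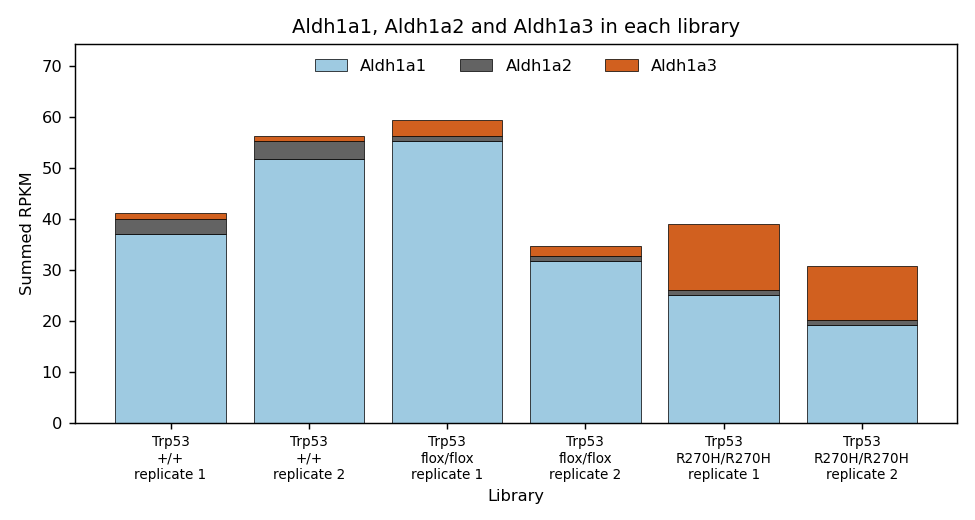
Bars show the RPKM of *Aldh1a1*, *Aldh1a2* and *Aldh1a3* stacked for each of the 6 libraries, from 0, with floor values drawn as 1. *Aldh1a3* made up 33.4% and 34.4% of the sum in the R270H/R270H libraries and at most 5.54% in the others.

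The summed level of the 3 genes was 41.0 and 56.3 RPKM in +/+, 59.5 and 34.6 in flox/flox, and 39.0 and 30.8 in R270H/R270H. The share of *Aldh1a3* was at most 2.44% and 1.78% in +/+ and was 5.28% and 5.54% in flox/flox, well under the R270H/R270H shares in the stacked bars. Both R270H/R270H sums were below both +/+ sums, and the flox/flox sums lay on both sides of the +/+ sums.

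The mitochondrial pair differed in which libraries were low, and neither gene was called in any comparison in the fit of all 3 genotypes. *Aldh2* (chromosome 5, 121566027 to 121593824) was at 92.1 and 103 RPKM in +/+, 9.40 and 34.7 in flox/flox and 23.7 and 31.5 in R270H/R270H. All 4 mutant libraries were below both +/+ libraries, and those of flox/flox were on both sides of R270H/R270H. The log2 fold change was -2.35 ± 0.57 in flox/flox (limma, adjusted p = 0.0602) and -1.79 ± 0.57 in R270H/R270H (adjusted p = 0.104). An antisense gene overlaps 130 bases of its exons, and whether the counting used strand is not stated. *Aldh1b1*, a gene of similar coding length with 69.7% coding identity to *Aldh2*, was at 104 and 83.8 RPKM in +/+, 122 and 60.3 in flox/flox and 136 and 166 in R270H/R270H. It was highest in the R270H/R270H libraries, with a log2 fold change of 0.68 ± 0.35 against +/+ (limma, adjusted p = 0.245). The ratio of *Aldh1b1* to *Aldh2* in RPKM was 1.13 and 0.817 in +/+, 12.9 and 1.74 in flox/flox, and 5.74 and 5.29 in R270H/R270H, so it was 1.74 or more in every mutant library and at most 1.13 in +/+.

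**Figure D2:**
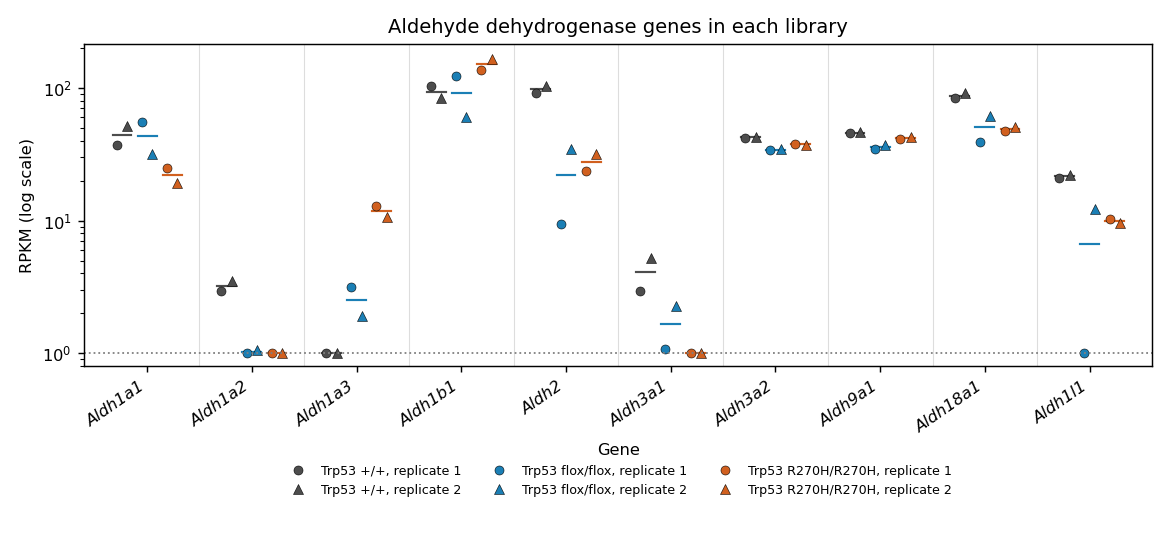
RPKM of the 10 genes on a log scale, with a point for each library (circle, replicate 1; triangle, replicate 2), a line at each genotype mean and a dotted line at the floor of 1 RPKM. *Aldh1a3* rises from the floor to 13.0 and 10.6 in R270H/R270H, and *Aldh2* lies at 9.40 to 34.7 in the mutant libraries against 92.1 and 103 in +/+.

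Of the lipid aldehyde genes *Aldh3a1* was low and *Aldh3a2* well expressed. *Aldh3a1* was at 2.97 and 5.21 RPKM in +/+, 1.07 and 2.26 in flox/flox and at the floor in both R270H/R270H libraries. It passed the filter through +/+ replicate 2 alone, and its log2 fold change was -1.31 ± 0.32 in R270H/R270H (limma, adjusted p = 0.0571) and -0.93 ± 0.32 in flox/flox (adjusted p = 0.111). *Aldh3a2*, the gene for fatty aldehyde dehydrogenase, was at 41.8 and 42.9 RPKM in +/+, 33.8 and 34.4 in flox/flox and 38.1 and 36.9 in R270H/R270H. The 3 genotypes did not overlap although the means differed by at most 1.24-fold, and the log2 fold change in flox/flox was -0.31 ± 0.09 (limma, adjusted p = 0.0852). *Aldh9a1* had the same order, with 45.8 and 46.2 RPKM in +/+, 34.8 and 37.2 in flox/flox and 41.1 and 42.5 in R270H/R270H, and a log2 fold change of -0.35 ± 0.09 in flox/flox (limma, adjusted p = 0.0726).

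The proline and folate enzymes were lower in all mutant libraries. *Aldh18a1* was at 84.1 and 91.2 RPKM in +/+, 39.0 and 61.7 in flox/flox and 47.6 and 50.8 in R270H/R270H. The log2 fold change was -0.82 ± 0.22 in flox/flox (limma, adjusted p = 0.0738) and also -0.82 ± 0.22 in R270H/R270H (adjusted p = 0.0737), and the flox/flox libraries lay on both sides of R270H/R270H. *Aldh1l1* was at 21.1 and 22.0 RPKM in +/+, 12.3 in flox/flox replicate 2, 10.3 and 9.62 in R270H/R270H, and at the floor in flox/flox replicate 1. Its log2 fold change was -2.13 ± 0.85 in flox/flox (limma, adjusted p = 0.147) and -1.04 ± 0.85 in R270H/R270H (adjusted p = 0.458). Exons of 2 other genes overlap those of *Aldh1l1*, 499 bases on the opposite strand and 105 on the same strand.

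The 10 genes were then read against all genes. In flox/flox against +/+, limma called 0 of the 8 members tested, where 11.3% of 10042 genes were called, and 5 of 8 had an unadjusted p under 0.05, as had 34.7% of all genes. In R270H/R270H against +/+ it called 0 of 8, where 12.2% of all genes were called, and 4 of 8 had an unadjusted p under 0.05, as had 32% of all genes. In R270H/R270H against flox/flox limma called 0 of the 8 members other than *Aldh1a3*, where 24.6% of all genes were called, and 1 of 8 had an unadjusted p under 0.05, as had 42.5% of all genes. *Aldh1a3* is left out of the 3 counts because it led to the choice. *Aldh3a1* is kept in them, although it passed the filter through +/+ replicate 2 alone, the genotype in which it is high. It is among those with an unadjusted p under 0.05 against +/+ (limma, 0.0302 in flox/flox and 0.00811 in R270H/R270H) and among the 6 of 9 below. The median log2 fold change of the tested members was -0.58 in flox/flox and -0.89 in R270H/R270H against +/+, beside -0.02 and 0.03 over all genes. All 4 mutant libraries were below both +/+ libraries for 7 of the 10 members, or for 6 of the 9 that passed the filter, and this held for 17.1% of all genes and for 4 of the 11 other *Aldh* genes. The low values went along with lower sums of the 5 Paneth cell markers, which were 1670 and 1330 RPKM in +/+, 591 and 616 in flox/flox and 502 and 559 in R270H/R270H, of the 6 goblet cell markers, at 375 and 323, 170 and 135, and 167 and 164, and of the 8 enterocyte markers, at 65.1 and 70.9, 26.1 and 29.9, and 43.3 and 35.5. Within the Paneth list *Itln1* went the other way in R270H/R270H, at 135 and 156 RPKM against 74.9 and 74.8 in +/+ (limma, adjusted p = 0.0382). Of the enterocyte list *Apoa1*, *Apoa4*, *Lct* and *Sis* were at the floor throughout. *Fabp1* was at 8.87 and 4.39 RPKM in R270H/R270H against 3.81 and 4.77 in +/+, and *Alpi* at 8.80 and 4.35 against 4.86 and 10.7, so neither was lower there. In flox/flox *Anpep* and the goblet genes *Tff3* and *Spdef* overlapped +/+. In these bulk cultures fewer cells of a type and less RNA per cell cannot be told apart, and the part of cell makeup in the result was not tested. The 2 comparisons with +/+ share their control libraries.

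**Figure D3:**
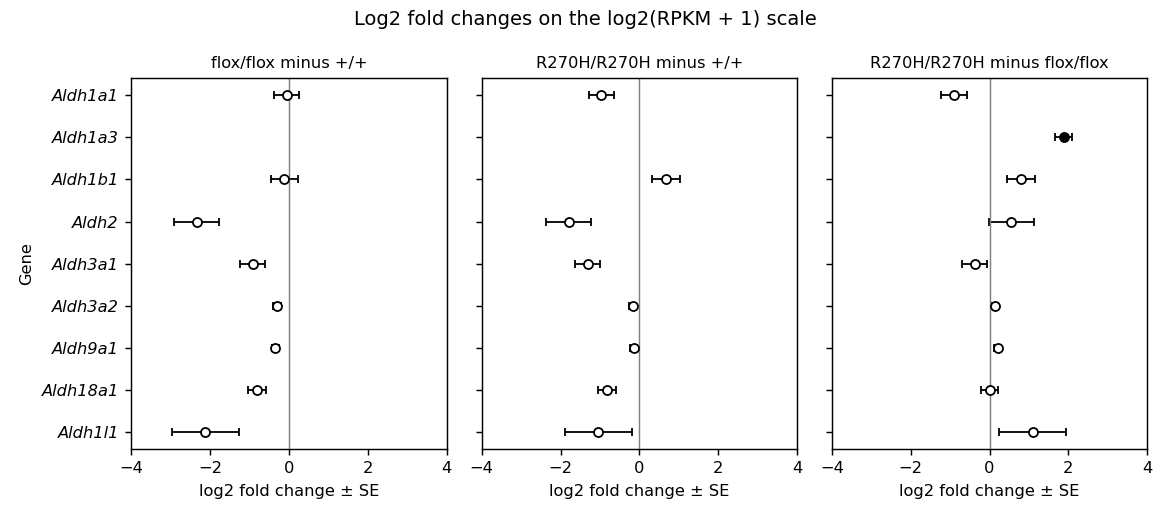
Points show log2 fold changes on the log2(RPKM + 1) scale with bars of 1 SE from limma, for the 9 members that passed the filter in 3 comparisons; filled points passed an adjusted p of 0.05, and *Aldh1a3* is not drawn against +/+. *Aldh1a3*, chosen for its rise in both mutant genotypes, is the filled point at 1.88 in R270H/R270H against flox/flox. *Aldh2* lies at -2.35 and -1.79 against +/+.

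These calls rest on a spread shared by the 3 genotypes, which the flox/flox libraries widen. With a weight for each genotype, limma called 7 of the 8 members in R270H/R270H against +/+: *Aldh1b1* was higher, and *Aldh1a1*, *Aldh1l1*, *Aldh2*, *Aldh3a1*, *Aldh3a2* and *Aldh18a1* were lower. The adjusted p-values of this fit ran from 9.08e-05 for *Aldh2* to 0.0277 for *Aldh3a2*, and it called 31.9% of all genes higher and 27.8% lower. A fit of only these 2 genotypes also called 7 of 8, with 31.2% of all genes higher and 25.7% lower. In flox/flox against +/+ both fits called 0 of 8, with 1.49% of all genes called under weights and 0.468% with the 2 genotypes alone. With a flox/flox library left out, the lone one is assumed to vary like the libraries of the other genotypes, whose spread is smaller. The flox/flox replicates decide the direction of some differences between the mutant genotypes. *Aldh1l1* differed by 1.09 on the log2 scale in R270H/R270H against flox/flox, by -0.27 without flox/flox replicate 1 (limma, adjusted p = 0.0382) and by 2.45 without replicate 2. *Aldh18a1* differed by 0.00, by -0.32 without replicate 1 (limma, adjusted p = 0.0249) and by 0.33 without replicate 2 (adjusted p = 0.0164), and *Aldh2* by 0.55, or by -0.34 without replicate 1. The calls of pathway genes, given next, also depend on single libraries. In all 3 comparisons most were lost when a +/+ or R270H/R270H library was left out. A genotype then has 1 library, and most calls over all genes were lost as well, so this is no trait of the pathway genes.

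The counts of related genes that follow can be set beside all genes, of which limma called 4.38% higher and 6.9% lower in flox/flox against +/+, 5.86% higher and 6.36% lower in R270H/R270H against +/+, and 13.6% higher and 11% lower in R270H/R270H against flox/flox. Of the 11 other *Aldh* genes 8 passed the filter. Limma called 2 lower in flox/flox, 1 lower in R270H/R270H and 2 higher in R270H/R270H against flox/flox. *Aldh1l2*, the mitochondrial counterpart of *Aldh1l1*, was at 17.7 and 20.9 RPKM in +/+, 1.39 and 4.58 in flox/flox and 4.05 and 4.21 in R270H/R270H. It fell by 2.47 ± 0.40 in flox/flox (limma, adjusted p = 0.0278) and by 1.98 ± 0.40 in R270H/R270H (adjusted p = 0.0391) on the log2 scale. *Aldh6a1*, which acts in valine breakdown, fell by 1.07 ± 0.12 in flox/flox (limma, adjusted p = 0.0136). *Aldh3b1*, at 1.96 and 1.78 RPKM in flox/flox and 4.10 and 3.85 in R270H/R270H, was 2.13-fold higher in R270H/R270H (limma, adjusted p = 0.0327). It passed the filter through R270H/R270H replicate 1 alone, the genotype in which it is high, so this p is not independent of how it entered the test. *Aldh1a7*, named after its values were seen because it shares sequence with *Aldh1a1*, was at 16.8 and 17.0 RPKM in +/+, 1.67 and 13.8 in flox/flox and 1.64 and 1.44 in R270H/R270H. In flox/flox replicate 1 it was low while *Aldh1a1* was at 55.3 RPKM, so the pair did not move together there.

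The other genes of the retinoid pathway were followed from uptake to response. Of 13 transport and storage genes 6 were tested, with 1 called higher in flox/flox, 1 higher in R270H/R270H, and 1 lower in R270H/R270H against flox/flox. *Scarb1*, a lipoprotein and carotenoid receptor, was at 15.4 and 16.7 RPKM in +/+, 26.7 and 22.9 in flox/flox and 14.1 and 13.4 in R270H/R270H, so it was high in flox/flox alone (limma, adjusted p = 0.0394 against +/+ and 0.0139 for R270H/R270H against flox/flox). *Rbp4*, the retinol carrier of plasma, was at the floor in 3 libraries, at 2.87 in flox/flox replicate 2 and at 4.37 and 4.96 in R270H/R270H, which is at least 4.67-fold above +/+ (limma, adjusted p = 0.0462). It passed the filter through R270H/R270H alone.

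Of 21 oxidoreductase genes 10 were tested. None was called in flox/flox by limma, where 5 had an unadjusted p under 0.05, and 1 was called in each direction in both other comparisons. *Rdh9*, a retinol dehydrogenase gene, was at 7.44 and 6.68 RPKM in +/+, 7.01 and 5.02 in flox/flox and 30.9 and 31.6 in R270H/R270H. It was 4.43-fold higher in R270H/R270H than in +/+ (log2 fold change 2.00 ± 0.16, limma, adjusted p = 0.00443) and 5.20-fold higher than in flox/flox (adjusted p = 0.00283). *Rdh10*, which makes retinaldehyde, was at 121 and 139 RPKM in +/+, 105 and 99.0 in flox/flox and 89.0 and 81.5 in R270H/R270H, and fell by 0.60 ± 0.12 in R270H/R270H (limma, adjusted p = 0.0369). *Dhrs3*, which turns retinaldehyde back to retinol, was at 9.6 ± 0.627 RPKM in +/+ (SD, n = 2), 16.4 and 13.2 in flox/flox and 8.19 and 8.86 in R270H/R270H, with a log2 fold change of -0.73 ± 0.14 in R270H/R270H against flox/flox (limma, adjusted p = 0.0242).

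**Figure D4:**
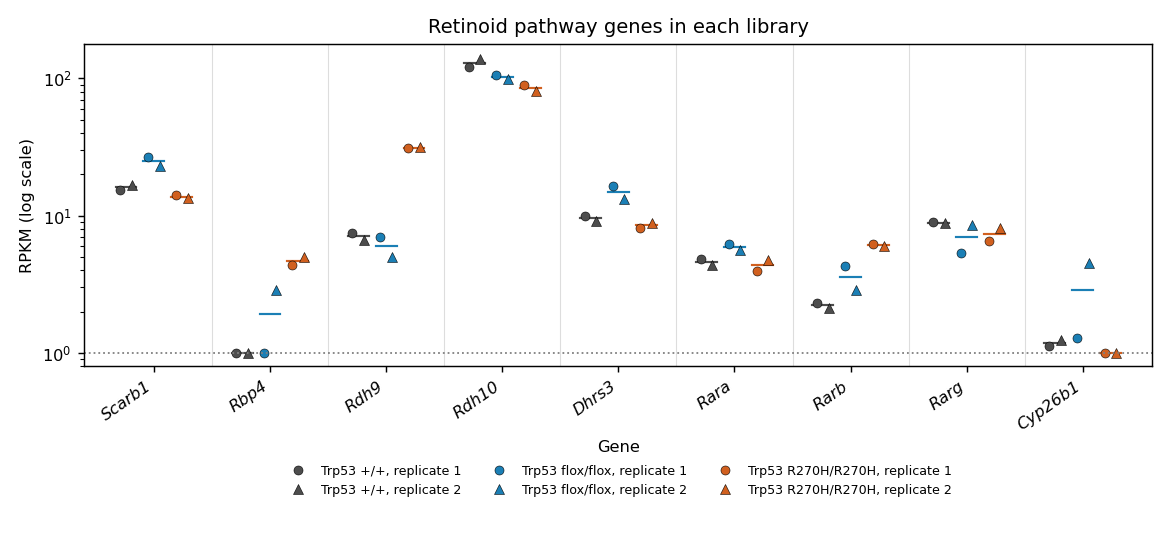
RPKM of 9 retinoid pathway genes on a log scale, with a point for each library (circle, replicate 1; triangle, replicate 2), a line at each genotype mean and a dotted line at the floor. *Rdh9* is at 30.9 and 31.6 in R270H/R270H against 5.02 to 7.44 in the other libraries, and *Rarb* is at 6.26 and 6.05 against 2.12 to 4.27.

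On the side of response, *Rarb*, a retinoic acid receptor whose gene is itself a target of retinoic acid, was at 2.32 and 2.12 RPKM in +/+, 4.27 and 2.88 in flox/flox and 6.26 and 6.05 in R270H/R270H. It rose by 1.15 ± 0.18 on the log2 scale in R270H/R270H (limma, adjusted p = 0.0231), and it was 0.66 higher than in flox/flox (adjusted p = 0.0546). *Rarb* was the only one of 5 tested receptor genes that was called in any comparison. *Rara* was at 3.97 to 6.18 RPKM and *Rarg* at 5.33 to 8.94 RPKM over the 6 libraries. The induced degrading enzyme gene *Cyp26a1* and the retinoic acid carrier gene *Crabp2* were at the floor in all 6 libraries. *Cyp26b1* was at 4.50 RPKM in flox/flox replicate 2, at the floor in R270H/R270H and at 1.12 to 1.28 in the rest. Of 6 binding and breakdown genes 2 were tested and 0 called by limma in any comparison, with 0, 1 and 1 at an unadjusted p under 0.05. Of 13 listed target genes 8 were tested, which include *Rarb* and *Dhrs3*. These were the ones called, *Rarb* higher in R270H/R270H against +/+ and *Dhrs3* lower against flox/flox, while 0 were called in flox/flox, with 2 at an unadjusted p under 0.05. The median log2 fold change of the tested targets was 0.50 in flox/flox and 0.37 in R270H/R270H against +/+, beside -0.02 and 0.03 over all genes. Between the mutant genotypes it was 0.14, beside 0.03. In flox/flox 4 of the 13 targets had both libraries above both +/+ libraries and 0 had both below. *Isx* (169 and 45.8 RPKM) and *Tgm2* (45.2 and 20.5) were above +/+ in flox/flox replicate 1 alone. *Cyp26b1* passed the filter through flox/flox replicate 2 alone.

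Of 11 genes around *Aldh18a1* in proline metabolism 10 were tested, with 3 called lower in flox/flox, 1 higher and 3 lower in R270H/R270H, and 3 in each direction between the mutant genotypes. *Pycr1*, which makes proline in the mitochondrion, was at 24.3 and 25.8 RPKM in +/+, 4.47 and 6.73 in flox/flox and 73.4 and 68.3 in R270H/R270H. It fell by 2.00 ± 0.18 in flox/flox (limma, adjusted p = 0.00979) and rose by 1.46 ± 0.18 in R270H/R270H (adjusted p = 0.013), and the mutant genotypes differed 12.6-fold (adjusted p = 0.00184). *Oat*, ornithine aminotransferase, fell by 1.35 ± 0.10 in flox/flox (limma, adjusted p = 0.00577). *Slc1a5*, a glutamine transporter, fell in both mutant genotypes, by 0.77 ± 0.12 in flox/flox (limma, adjusted p = 0.0269) and by 0.75 ± 0.12 in R270H/R270H (adjusted p = 0.0238). *Got1*, an aspartate aminotransferase, fell by 0.58 ± 0.12 on the log2 scale in R270H/R270H against +/+ (limma, adjusted p = 0.0423).

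Of 18 folate genes 14 were tested, with 1 called lower in flox/flox, 4 lower in R270H/R270H, and 1 higher and 4 lower in R270H/R270H against flox/flox. *Mthfd2*, of the mitochondrial folate cycle, was at 93.1 and 99.8 RPKM in +/+, 65.8 and 74.1 in flox/flox and 35.5 and 36.0 in R270H/R270H, and fell by 1.41 ± 0.11 in R270H/R270H against +/+ (limma, adjusted p = 0.00391). *Shmt2*, which feeds 1-carbon units from serine into that cycle, fell by 1.02 ± 0.16 (limma, adjusted p = 0.0217), and *Slc19a1*, the reduced folate carrier, by 0.89 ± 0.11 (adjusted p = 0.0136). The gene lower in flox/flox was *Aldh1l2*. *Amt*, of the glycine cleavage system, was higher (2.15-fold) and *Mthfd1* lower (1.33-fold) in R270H/R270H than in flox/flox (limma, adjusted p = 0.0481 for both).

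**Figure D5:**
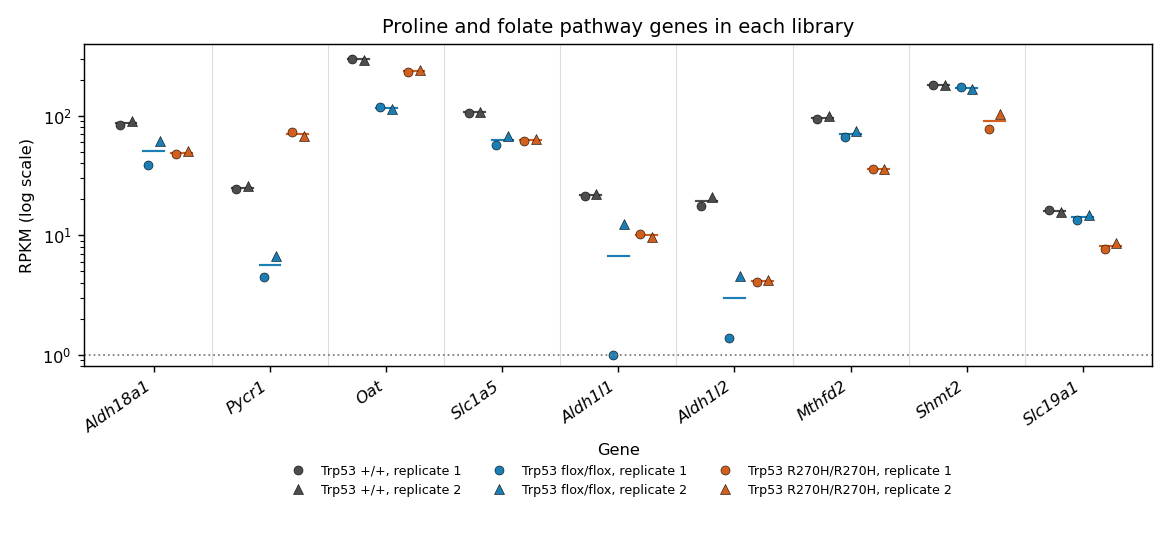
RPKM of *Aldh18a1* and *Aldh1l1* with proline and folate pathway genes on a log scale, with a point for each library (circle, replicate 1; triangle, replicate 2), a line at each genotype mean and a dotted line at the floor. *Pycr1* is at 4.47 and 6.73 in flox/flox and at 73.4 and 68.3 in R270H/R270H, while *Aldh18a1* is at 39.0 to 61.7 in both.

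Of 16 alcohol and lipid aldehyde genes 12 were tested, with 3 called lower in flox/flox, 2 lower in R270H/R270H and 1 in each direction between the mutant genotypes. *Cbr1*, a carbonyl reductase gene, was at 62.3 and 66.4 RPKM in +/+, 34.3 and 32.0 in flox/flox and 22.4 and 23.5 in R270H/R270H, and fell by 0.94 ± 0.10 (limma, adjusted p = 0.0127) and by 1.45 ± 0.10 (adjusted p = 0.00367). Its relative *Cbr3* was at 8.30 and 9.76 RPKM in +/+, at the floor and 3.29 in flox/flox and at the floor in R270H/R270H, at least 9.03-fold lower there (limma, adjusted p = 0.0232), and it passed the filter through +/+ alone. *Far2*, which makes fatty alcohols, fell by 0.86 ± 0.16 in flox/flox (limma, adjusted p = 0.0359). Of 7 genes listed around *Aldh9a1*, for carnitine and amines, 6 were in the table and 3 were tested, *Maoa*, *Sat1* and *Slc22a5*. *Bbox1* was at the floor in all 6 libraries and *Tmlhe* was not in the table, so no other carnitine synthesis gene was tested. None of the 3 was called in flox/flox by limma, also with 0 at an unadjusted p under 0.05. *Sat1*, a polyamine acetyltransferase gene, fell by 0.98 ± 0.16 in R270H/R270H against +/+ (limma, adjusted p = 0.0239).

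The 5 genes whose log2(RPKM + 1) values followed those of *Aldh1a3* most closely over the 6 libraries were *Vash2* (Pearson's r = 0.998), *Ift57* (0.997), *Gata6* (0.995), *Pcgf1* (0.995) and LOC100505096 (0.994). They are given as a description from 3537 genes with a range of at least 1, of which 45 had r above 0.95, and the 6 points share 3 genotypes. *Gata6*, a transcription factor of the gut epithelium, was at 6.85 and 6.41 RPKM in +/+, 8.76 and 7.78 in flox/flox and 15.0 and 14.8 in R270H/R270H.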

How the data were processed

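The authors made stranded poly(A) libraries, mapped the reads to mm10 and computed RPKM per gene with StrandNGS, and the deposited RPKM table was used as given. The software's version, annotation and strand setting are not given in the sources used here, and the floor of 1 RPKM is inferred from the values. Genotypes were taken from the labels, and same-numbered libraries come from different mice. The 10042 genes reaching 4 RPKM in any library were fitted as log2(RPKM + 1) with limma 3.58.1 in R 4.3.3 (lmFit, eBayes with trend), using all 6 libraries without a block, two-sided, with Benjamini-Hochberg adjustment over these genes at 0.05. Fold changes on this scale understate the change of low genes. An exact permutation test of 2 against 2 libraries cannot go below p = 0.333, so none was run. Depth was the value on a grid of 20 to 70 M reads at which the values of short genes under 230 nt came closest to whole reads; in the 5 libraries used, 10 to 18 of 15 to 23 values were within 0.05 of a whole read. The members and lists were chosen with earlier results of these data known. Named were all members, list genes called in any comparison (at most 6 a list, by size), 9 preset retinoid genes and the 5 genes most like *Aldh1a3*; a few genes that meet this rule are not reported here. Promoters are from RefSeq (GRCm38.p6), and positions, transcripts and exon overlaps from GENCODE M21 or RefSeq on GRCm38. The code was tested on simulated data. Alternatives changed the pseudocount (0.1 or none), filter, scaling, block, trend, weights or libraries.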

Additional observations from a re-analysis of the deposited data

How the results depend on the processing

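With 2 libraries a genotype and values under 1 RPKM hidden, small differences of low genes could not be resolved. Of the members' values under alternative settings, 413 stayed the same, 54 gained a call, 3 lost one, 9 changed sign and 4 values given without a test moved. Staying the same means keeping direction and side of the threshold. For *Aldh1a3* against +/+, which has no test, it means a shift smaller than the larger SD between replicates. Calls over all genes moved too when a library was left out, which leaves 1 library in a genotype. Without a flox/flox library they rose in all comparisons, and without a +/+ or R270H/R270H library most were lost. The counts of those fits, given next, therefore cannot be read as a trait of the members or lists. Members called in flox/flox against +/+ (0 as reported) numbered 1 with a filter of 1 RPKM and 0 to 6 with a library left out; in R270H/R270H against +/+ (0) they numbered 1 with that filter, 1 with the replicate block and the R270H numbers exchanged, 7 with genotype weights, 7 with only the 2 genotypes and 0 to 7 with a library left out; and in R270H/R270H against flox/flox (1) 0 to 6 with a library left out. Genes called in the lists together, in the same order of comparisons, were 9, 15 and 19 as reported, 3, 46 and 5 with genotype weights, 0, 41 and 5 with only the 2 genotypes, and 0 to 47, 0 to 42 and 1 to 47 with a library left out. Without a filter, limma called 5, 4 and 0 members and 51, 57 and 5 list genes, but 25206 and 25827 of 36172 genes were then called higher against +/+ while 23760 genes stood at the floor in all libraries with no spread, so these counts cannot be interpreted; *Aldh1a3* between the mutant genotypes then had an adjusted p of 0.0525. Same-numbered libraries deviated together with correlations of 0.117, -0.291 and -0.196, so the numbers do not pair them; with the replicate block the list counts were 5 in flox/flox and 9 in R270H/R270H against flox/flox, and *Aldh1a3* kept its call (adjusted p = 0.0181, and 0.0164 with the R270H numbers exchanged). Signs changed for *Aldh1a1* in flox/flox (-0.46 to 0.33 with a library left out), *Aldh1b1* in flox/flox (-0.62 to 0.38), and, between the mutant genotypes, *Aldh1l1* (-0.27 to 2.45), *Aldh2* (-0.34 to 1.45) and *Aldh18a1* (-0.32 to 0.33, and -0.03 with median-of-ratios scaling). Against +/+ the log2 difference of *Aldh1a3* was 1.22 in flox/flox and 3.43 in R270H/R270H with a pseudocount of 0.1, and 1.30 and 3.55 with none, instead of 0.80 and 2.67. The causes were not tested.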
